A study of Mus musculus with 8 samples.

Results

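RNA of the interleukin-12 family subunits was measured in mouse dendritic cells from Gata1 knock-out (KO) mice or wild-type (WT) mice, kept at steady state (ST) or treated with lipopolysaccharide (LPS), the outer-membrane component of Gram-negative bacteria that is sensed by TLR4. The members were the rows Il12a, Il12b, Il23a, Il27 and Ebi3 of the count table, 5 of 23420 features, chosen by name but with earlier results of these data known. Each of the 4 groups held 2 libraries, which the submitters describe as biological replicates. The sources used here do not name the animals or cultures behind each library, the LPS dose and duration, the way the dendritic cells were obtained or the position of the Gata1 deletion. The p-values therefore measure the spread between these libraries.

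Cytokines of this family are heterodimers of an alpha chain, which folds as a helical cytokine, and a beta chain, which resembles a soluble cytokine receptor. Il12b encodes the beta chain p40, which pairs with p35 (Il12a) to form IL-12 and with p19 (Il23a) to form IL-23. Ebi3 encodes the other beta chain, which pairs with p28 (Il27) to form IL-27 and with p35 to form IL-35. Dendritic cells and macrophages are the main sources of IL-12, IL-23 and IL-27. IL-12 directs T cells and NK cells towards interferon-gamma production, IL-23 sustains T cells that make IL-17, IL-27 both promotes and restrains T cell responses, and IL-35 is known as a suppressive cytokine of regulatory lymphocytes. p40 can also be secreted without an alpha chain.

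The subunit genes lie on 5 chromosomes (GRCm38, the assembly of mm10, with GENCODE M21 gene models). Il12a spans chr3:68690644-68698547 on the plus strand, Il12b chr11:44400063-44414033 on the plus strand, Ebi3 chr17:55952640-55957022 on the plus strand, Il27 chr7:126589010-126594941 on the minus strand and Il23a chr10:128296139-128298752 on the minus strand. RefSeq promoters (GRCm38.p6) were matched for 3 of the 5 members, Il12a, Il12b and Ebi3. The 250 bases before the start site of each are shown because these 3 subunits carried most of the RNA after LPS and because sites for NF-kB, C/EBP and ETS factors are the textbook elements of LPS-responsive promoters. Capitals mark the matches to the motifs searched, and each line reads 5′ to 3′ on the plus strand.
Il12b, chr11:44399813-44400062: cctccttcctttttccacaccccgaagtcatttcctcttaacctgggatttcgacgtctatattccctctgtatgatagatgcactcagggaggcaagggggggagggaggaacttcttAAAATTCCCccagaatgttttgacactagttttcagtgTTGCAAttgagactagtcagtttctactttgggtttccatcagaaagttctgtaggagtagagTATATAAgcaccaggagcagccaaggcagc
Il12a, first start site, chr3:68690394-68690643: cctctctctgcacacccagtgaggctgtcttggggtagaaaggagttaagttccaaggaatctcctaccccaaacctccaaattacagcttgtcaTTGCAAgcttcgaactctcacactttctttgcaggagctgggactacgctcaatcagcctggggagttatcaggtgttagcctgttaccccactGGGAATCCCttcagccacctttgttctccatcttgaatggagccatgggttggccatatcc
Ebi3, chr17:55952373-55952622: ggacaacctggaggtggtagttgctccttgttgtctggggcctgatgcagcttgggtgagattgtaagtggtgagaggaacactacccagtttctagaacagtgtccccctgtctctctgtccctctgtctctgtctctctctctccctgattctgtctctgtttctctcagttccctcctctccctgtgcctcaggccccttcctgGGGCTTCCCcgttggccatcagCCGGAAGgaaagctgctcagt

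A fixed list of motifs was searched on both strands, in windows of 300 bases that add the first 50 bases of the transcript. It was not an open search, so a low share of windows does not make a match a rare find. Positions count back from the start site, with -1 as the base just before it. In Il12b, AAAATTCCC lay at -131 to -123 and is the reverse strand of the Rel-type letters GGGAATTTT, which 0.313% of 32544 distinct RefSeq promoter windows held. TTGCAA, a C/EBP core that 6.18% of windows held, lay at -93 to -88 of Il12b, and the TATA box letters TATATAA, held by 3.22%, at -30 to -24. In the window of the first Il12a start site, TTGCAA lay at -155 to -150 and GGGAATCCC at -61 to -53, which matches the NF-kB-type letters GGGANNNCC held by 18.7% of windows. The window of the second Il12a start site held no match. Ebi3 held an NF-kB-type match on the minus strand, printed above as GGGCTTCCC, at -43 to -35, and the ETS letters CCGGAAG, held by 8.91%, at -21 to -15. An interferon regulatory factor element (GAAA, any 2 bases, GAAA) held by 3.45% of windows matched in none of the 4 windows. These matches describe letters, not sites in use, and neither they nor a missing match bears on binding of a factor.

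Total counts per library ran from 8005151 to 15495249, and 12442 genes passed the filter on low counts. Levels are given as CPM, read counts scaled by TMM-adjusted library size. The targeted gene gave little to check the labels with: Gata1 had 0 reads in 4 of 4 KO libraries, 1 and 10 reads in the WT steady-state libraries, and 0 and 1 reads in the WT LPS libraries. The WT steady-state library 2, which held the 10 reads, also had the highest summed CPM of mast cell and basophil markers (88.4, against 0 to 2.70 in the other 7 libraries), of neutrophil markers (198, against 4.25 to 35.7) and of B cell markers (30.0, against 0.529 to 8.50). The 2 WT LPS libraries differed most from each other, with a Pearson correlation of 0.910 over log2 CPM across genes, against 0.954 to 0.981 in the other groups. Some results that rest on these libraries, but not all, are also given without them below. All 10 dendritic cell markers and all 8 macrophage markers were detected. The summed CPM of 4 plasmacytoid dendritic cell markers was 136 to 367 at steady state and 873 to 1424 with LPS, and most of it was Bst2, an interferon-induced gene (841 to 1406 CPM with LPS), while Siglech had 0 reads in all 4 LPS libraries. The part of these markers in the LPS differences was not tested. T and NK cell markers summed to 0.186 to 7.99 CPM and fibroblast markers to 0.465 to 19.5.

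Il12b, the p40 gene, rose with LPS in WT and had, of the 4 subunits tested, the largest difference between the genotypes after LPS, which fell short of the threshold. Il12b had 62.1 and 182 CPM in the WT steady-state libraries and 147 and 153 CPM in the KO steady-state libraries. After LPS it had 831 and 857 CPM in WT but 174 and 149 CPM in KO. Both WT LPS libraries thus stood above all 6 others, a pattern whose share over all genes was not counted. Of all genes, 27.5% were higher in WT LPS than in WT steady state without overlap. The KO LPS libraries lay within the range of steady state. In WT, Il12b rose with LPS by 2.79 ± 0.49 on the log2 scale (SE, n = 2 per group; 6.92-fold; edgeR quasi-likelihood test, Benjamini-Hochberg adjusted p = 0.0210). In KO, the difference was 0.11 ± 0.46, with a 95% interval of -0.97 to 1.18 (edgeR adjusted p = 0.889).

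The call of the WT rise of Il12b changed under some alternatives. The adjusted p was 0.0739 without WT steady-state library 1 (difference 2.23), 0.0502 without KO steady-state library 1 and 0.0897 when only the groups compared entered the fit, and over all 17 alternatives it ran from 4.45e-07 to 0.0897. Averaged over both genotypes the LPS difference was 1.45 ± 0.33 (edgeR adjusted p = 0.0193). That call was lost without KO steady-state library 1 (adjusted p = 0.0780), KO steady-state library 2 (0.0734) or KO LPS library 2 (0.0509).

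With LPS, Il12b was 5.23-fold lower in KO than in WT, a log2 difference of -2.39 ± 0.48 (SE, n = 2 per group) with a 95% interval of -3.52 to -1.26. The unadjusted p was 0.00142, but the edgeR adjusted p was 0.0757, so the difference did not pass the threshold of 0.05. It was called without the filter on low counts, with DESeq2, with a replicate block in which the KO LPS numbers were crossed, and without WT LPS library 1. Across 17 alternatives the adjusted p ran from 7.59e-05 to 0.318, and the difference stayed between -2.51 and -2.30. The difference between the LPS responses of the genotypes was -2.68 ± 0.66 (unadjusted p = 0.00427, edgeR adjusted p = 0.540). DESeq2 called it, with an adjusted p of 0.0180, the lowest of 16 alternatives, which reached 1. At steady state the KO minus WT difference of Il12b was 0.30, with a 95% interval of -0.78 to 1.37 and an edgeR adjusted p of 1, and it was -0.29 without WT steady-state library 1. In RNA from whole samples, fewer Il12b-expressing cells and less Il12b RNA per cell cannot be told apart.

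**Figure D1:**
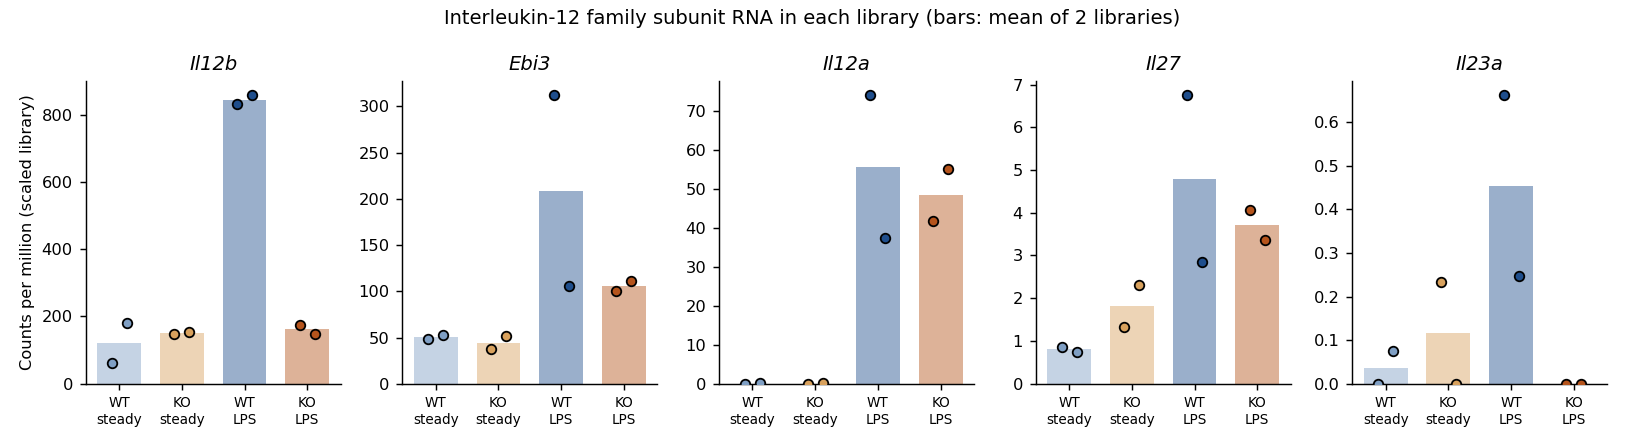
CPM (TMM-scaled) of each subunit by group, on a linear axis of its own for each gene. Points are the 2 libraries of a group and bars their mean. Il12b is at 831 and 857 in the WT LPS libraries and at 182 or less in all others, whereas Il12a is near 0 at steady state and reaches 37.5 to 74.1 in all 4 LPS libraries.

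The markers of the labelled cell type and of macrophages were read in the same LPS groups. The summed CPM of 10 dendritic cell markers was 11203 and 7702 in the WT LPS libraries and 4790 and 8389 in the KO LPS libraries, which overlap. Most of each sum came from Cd74 (6676 and 4178 CPM in WT LPS, 1835 and 4457 in KO LPS) and H2-Ab1 (2381 and 1383, 929 and 2351). In KO 8 of 10 markers were lower and 2 higher, with a median log2 difference of -2.07 beside -0.014 over all genes tested. Of the 10, 6 had an unadjusted p under 0.05 in the edgeR test, as did 16.9% of all genes. The chemokine receptor gene Ccr7, 1 of 10, was called lower, beside 0.490% of all genes. The summed CPM of 8 macrophage markers was 5082 and 3481 in WT LPS and 19537 and 14849 in KO LPS, with 8 of 8 higher in KO and 0 called (4 at an unadjusted p under 0.05). At steady state the macrophage sums were 16447 to 20463 in both genotypes, while Il12b was at 62.1 to 182 CPM. The part of these markers in the Il12b difference was not tested.

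Ebi3, the other beta chain gene, was expressed at steady state in both genotypes and was higher after LPS. Ebi3 had 48.5 and 53.1 CPM in WT and 37.2 and 51.1 CPM in KO at steady state. With LPS it had 312 and 106 CPM in WT and 100.1 and 111 CPM in KO. All 4 LPS libraries stood above all 4 steady-state libraries, as they did for 16.0% of all genes, and WT LPS library 1 stood apart from the other 3. Averaged over both genotypes, Ebi3 rose by 1.65 ± 0.34 on the log2 scale (SE; 3.13-fold; edgeR adjusted p = 0.0134). The call was lost without WT steady-state library 1 (adjusted p = 0.0599), WT steady-state library 2 (0.0573) or KO steady-state library 1 (0.0608). Within WT the difference was 2.04 ± 0.48 (edgeR adjusted p = 0.0510) and within KO 1.25 ± 0.47 (0.117). DESeq2 called the WT difference (adjusted p = 0.00109), and over the alternatives the adjusted p ran from 0.00109 to 0.271 in WT and from 0.0100 to 0.412 in KO. In KO the LPS libraries stood above the steady-state libraries, as for 34.4% of all genes.

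KO and WT Ebi3 levels overlapped after LPS. The KO minus WT difference was -0.98 ± 0.47 (edgeR adjusted p = 0.343) and rested on WT LPS library 1. Without that library it was -0.0088, and without WT LPS library 2 it was -1.56, with an edgeR adjusted p of 0.0420, the lowest over 17 alternatives, which reached 0.991. At steady state the difference was -0.20, with a 95% interval of -1.29 to 0.88, and without KO steady-state library 1 it was 0.0097. The interaction for Ebi3 was -0.78 ± 0.66 (edgeR adjusted p = 0.973), and 0.19 without WT LPS library 1. The antisense gene Gm16712 overlaps the span of Ebi3, introns included, over 2252 bases, and the overlap of exons was not computed. Where exons overlap, reads of the 2 genes cannot be told apart, because the library kit does not mark strand.

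Il12a, the p35 gene, went from near absence to a clear signal in both genotypes. At steady state it had 0 and 1 reads in the WT libraries and 0 and 1 reads in the KO libraries. After LPS it had 560 and 606 reads in WT and 370 and 361 reads in KO, which is 74.1 and 37.5 CPM in WT and 41.8 and 55.3 CPM in KO. No LPS library came near a steady-state library. Il12a rose in WT (edgeR adjusted p = 0.00372) and in KO (0.00246). The pooled ratio of LPS to steady state was 1170 in WT (95% interval 210 to 46245) and 1149 in KO (206 to 45456), intervals that cover counting error only and are wide because each steady-state group held 1 read.

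After LPS, Il12a did not separate the genotypes. The means were 55.8 ± 25.9 CPM in WT and 48.5 ± 9.53 CPM in KO (SD, n = 2 each), both KO libraries lay between the 2 WT libraries, and the KO minus WT difference was -0.20 ± 0.44 with a 95% interval of -1.22 to 0.82 (edgeR adjusted p = 0.874). It was 0.37 without WT LPS library 1. No genotype fold is given at steady state, where each group held 1 read.

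Il27, the p28 gene, was a low-level transcript in every group. It had 0.869 and 0.744 CPM in WT and 1.32 and 2.30 CPM in KO at steady state, from 9 to 26 reads. With LPS it had 6.74 and 2.85 CPM in WT and 4.07 and 3.37 CPM in KO, from 22 to 51 reads. The 4 LPS libraries stood above the 4 steady-state libraries, as they did for 16.0% of all genes, and the LPS groups overlapped. Averaged over both genotypes Il27 rose by 1.79 ± 0.42 (SE; 3.46-fold; edgeR adjusted p = 0.0208). The call was lost without either WT steady-state library, either KO steady-state library or KO LPS library 2, where the adjusted p ran from 0.0539 to 0.0931. Within WT the difference was 2.54 ± 0.61 (edgeR adjusted p = 0.0546) and within KO 1.04 ± 0.58 (0.243).

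At steady state both KO libraries had more Il27 than both WT libraries, a difference of 1.16 ± 0.61 (2.23-fold, unadjusted p = 0.0980, edgeR adjusted p = 1). Of all genes, 22.1% were higher in this non-overlapping way. The KO minus WT difference with LPS was -0.34 ± 0.56 (edgeR adjusted p = 0.823), and 0.38 without WT LPS library 1. The interaction was -1.5 ± 0.83 (edgeR adjusted p = 0.887). Il27 overlaps the end of Apobr on the other strand by 103 bases.

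Il23a, the p19 gene, was at the edge of detection and did not pass the filter, so it was not tested in the main fit. It had 0 and 1 reads in WT and 3 and 0 reads in KO at steady state, 5 and 4 reads in WT with LPS, and 0 reads in both KO LPS libraries. The WT LPS libraries, at 0.661 and 0.247 CPM, were the highest. Both KO LPS libraries at 0 reads allow a level of up to 0.195 CPM (3 reads over the group), and the KO to WT ratio with LPS, 0 reads against 9, had a 95% counting interval of 0 to 0.781. In WT, the pooled LPS to steady-state ratio was 9.03, with a 95% counting interval of 1.25 to 396 from 9 reads against 1. These intervals cover counting error only, not the spread between libraries. In the edgeR fit without the filter on low counts, neither difference was called. The adjusted p was 0.403 for KO against WT with LPS and 0.348 for LPS in WT.

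**Figure D2:**
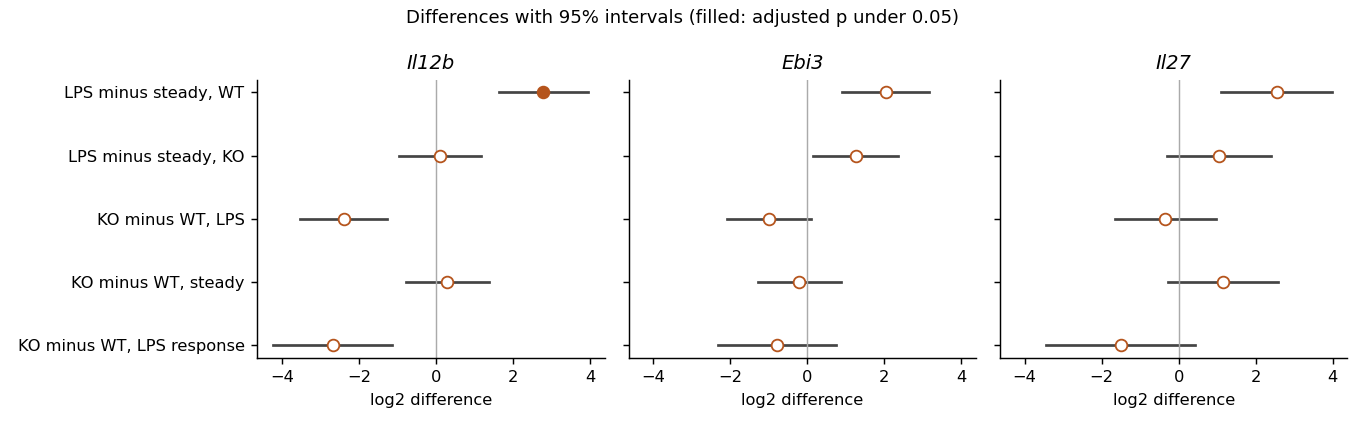
Log2 differences from the edgeR fit over 12442 genes for Il12b, Ebi3 and Il27, with 95% intervals as bars and filled points for an adjusted p under 0.05. The LPS rise of Il12b in WT (2.79) is the only filled point, and the KO minus WT difference of Il12b with LPS lies at -2.39 with its interval below 0.

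Counted over the family, 4 of the 5 members passed the filter, and Il23a did not. Il12a, at 0 or 1 reads in each steady-state library, passed it only through its LPS libraries. Its place in the LPS counts and medians below therefore depends on its LPS level. In WT, LPS raised 2 of these 4 (Il12a and Il12b), where 6.49% of all genes tested were called in either direction. In KO it raised 1 (Il12a), where 11.8% were called in either direction. Averaged over both genotypes it raised 4, where 13.8% were called higher, although the Il12b libraries overlapped between treatments. The median difference of the 4 was 2.67 in WT and 1.15 in KO, beside 0.0019 and -0.023 over all genes tested. No member was called between the genotypes at steady state (0 of 12442 genes called, 0%; 327 at an unadjusted p under 0.05, 27 by DESeq2) or in the interaction (0 genes called, 0%; 797 unadjusted, 113 by DESeq2). No member was called by edgeR between the genotypes with LPS, where 0.772% of genes were called (2108 unadjusted, 1062 by DESeq2), although all 4 differences were below 0 with a median of -0.66 beside -0.014 over all genes. Without WT LPS library 1 this common direction was lost, with Il12a at 0.37, Il27 at 0.38 and Ebi3 at -0.0088. With all libraries, DESeq2 called Il12b between the genotypes with LPS.

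To compare the subunits with each other, CPM was divided by the length of the merged exons in kb, which was 1.967 for Il12b, 1.37 for Il12a, 1.36 for Il23a, 1.154 for Ebi3 and 1.021 for Il27. After LPS, the order in 3 of 4 libraries was Il12b, Ebi3, Il12a, Il27 and Il23a. In KO LPS library 2 Ebi3 (95.9 CPM per kb) stood above Il12b (75.6), and in KO LPS library 1 both were close, at 86.7 for Ebi3 and 88.5 for Il12b. In WT LPS, Il12b had 422 and 436 CPM per kb against 270.2 and 91.5 for Ebi3. Il12a followed with 54.1 and 27.4 in WT and 30.5 and 40.3 in KO, and Il27 with 2.79 to 6.61 over the 4 LPS libraries. At steady state the 2 beta chain genes led in all 4 libraries, Il27 came next with 0.728 to 2.25, and Il12a and Il23a could not be ordered at 0 to 3 reads. Ebi3 exceeded Il12b in WT steady-state library 1 (42.01 against 31.6) and not in the other 3 steady-state libraries.

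**Figure D3:**
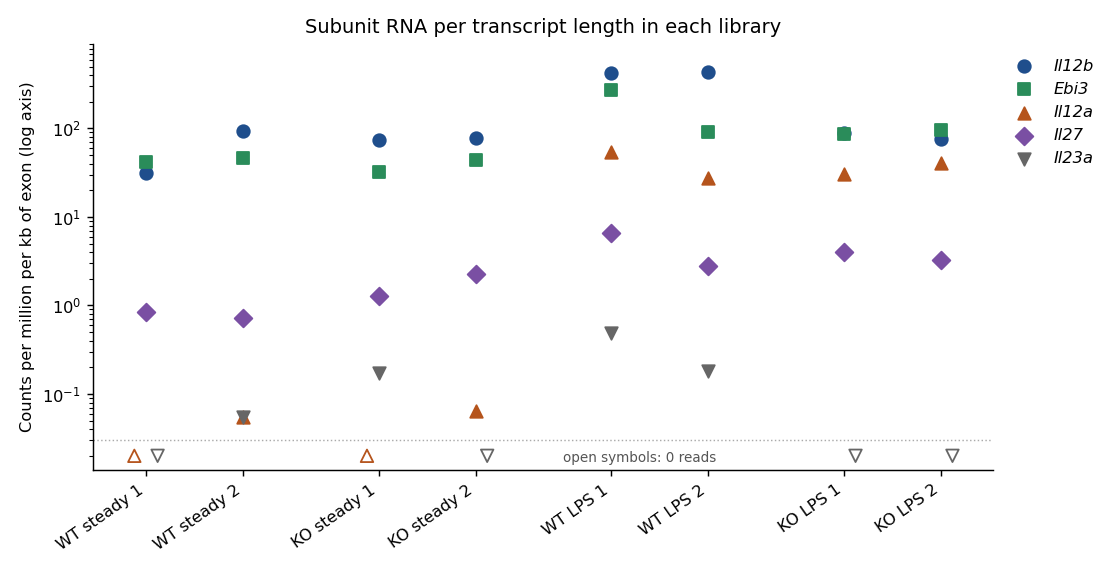
CPM per kb of merged exon for the 5 subunits in each of the 8 libraries, on a log axis, with open symbols at the base for 0 reads. In every library both beta chain genes (Il12b and Ebi3, 31.6 to 436) lie above the alpha chain genes, and Il12a moves from 0 or 1 reads to the highest alpha chain RNA after LPS.

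The levels set which heterodimers had RNA of both partners, though protein was not measured. RNA from whole samples cannot show whether the RNAs of both partners were in the same cells. Both partners of IL-27 (Ebi3 and Il27) were detected in 8 of 8 libraries. Those of IL-12 (Il12b and Il12a) and of IL-35 (Ebi3 and Il12a) were detected above the limit of 3 reads in the 4 LPS libraries and in no steady-state library, where Il12a had at most 1 read. Those of IL-23 (Il12b and Il23a) were above it in the 2 WT LPS libraries, at 5 and 4 reads of Il23a. The limit differs with depth: 3 reads were 0.339 and 0.459 CPM in the KO LPS libraries. Il23a in WT LPS library 2, at 0.247 CPM, would lie below either value. For all 4 pairs the alpha chain RNA was the scarcer partner in 8 of 8 libraries, with the length of the merged exons, of all annotated models, of the longest coding transcript or of the coding sequence.

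For IL-12 the scarcer RNA was therefore Il12a, whose levels overlapped between the genotypes after LPS. Il12b exceeded Il12a per kb 7.81-fold and 15.9-fold in the WT LPS libraries and 2.90-fold and 1.87-fold in the KO LPS libraries. The groups did not overlap, but 2 libraries against 2 allow no exact two-sided permutation p below 0.333, which is the value found (0.444 adjusted over the 4 ratio tests made). Even in KO, Il12b RNA remained above Il12a RNA in both LPS libraries.

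For IL-35, Ebi3 exceeded Il12a 5.0-fold and 3.34-fold in WT LPS and 2.84-fold and 2.38-fold in KO LPS. These groups did not overlap either, with the same exact permutation p of 0.333. For IL-23, Il12b exceeded Il23a 869-fold and 2395-fold in the WT LPS libraries.

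For IL-27, the ratio of Ebi3 to Il27 lay lower in every KO library than in any WT library, a difference that could not have passed after adjustment. It was 49.3 and 63.2 in WT and 25.0 and 19.6 in KO at steady state, and 40.9 and 32.8 in WT and 21.8 and 29.1 in KO with LPS. All 4 KO libraries lay below all 4 WT libraries, a mean log2 difference of -0.94, with an exact two-sided permutation p of 0.0286, the smallest that 4 libraries against 4 can give, and 0.114 after adjustment over the 4 ratio tests. Labels were permuted freely across treatments. Permuting them within each treatment, which was not done, would allow fewer arrangements. The ratio was not separated by LPS (log2 difference -0.21, exact permutation p = 0.629), although both genes rose when averaged over the genotypes. Il27 rests on 9 to 51 reads in these ratios.

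**Figure D4:**
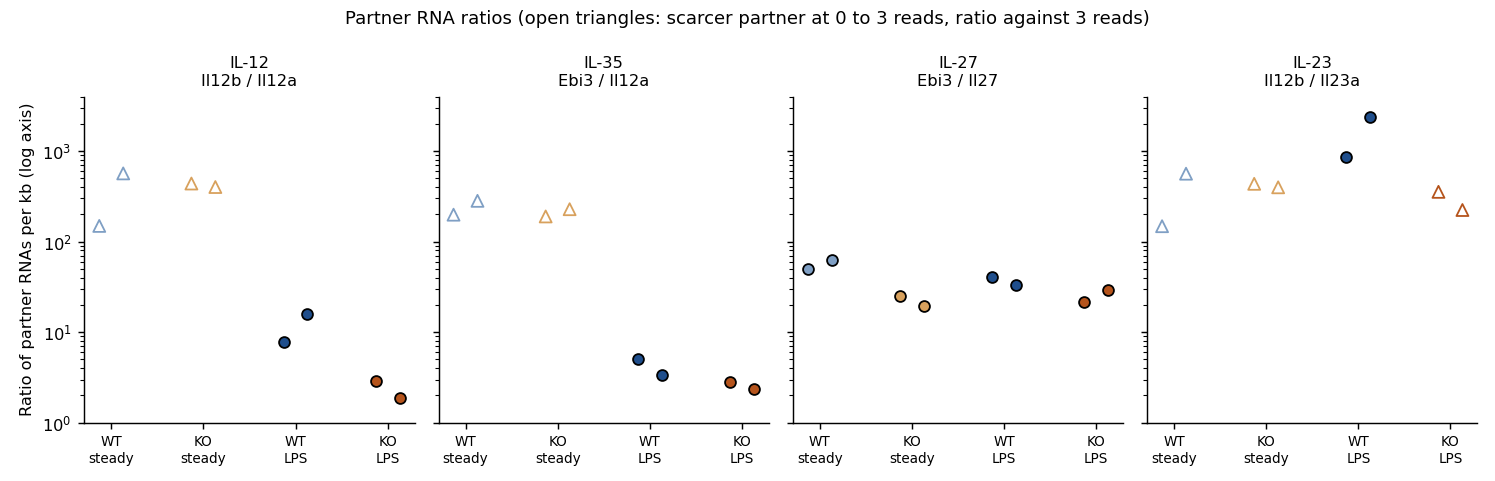
Ratio of beta chain to alpha chain RNA per kb for the 4 heterodimers in each library, on a log axis, with open triangles where the scarcer partner had 0 to 3 reads and the ratio was taken against 3 reads. The IL-12 ratio is 7.81 and 15.9 in WT LPS against 2.90 and 1.87 in KO LPS, and the IL-27 ratio is lower in all 4 KO libraries than in all 4 WT libraries.

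Genes around the subunits were read from lists of receptors, signalling molecules, regulators and other LPS-responsive genes. Among 5 receptor chains, LPS averaged over both genotypes raised 1 and lowered 2, where 13.8% of all genes were called higher and 14.8% lower. Il27ra, the ligand-specific chain of the IL-27 receptor, had 11.3 and 6.10 CPM in WT and 16.3 and 10.8 CPM in KO at steady state. With LPS it had 0.661 and 0.866 CPM in WT and 4.63 and 1.99 CPM in KO, so that all 4 LPS libraries lay below all 4 steady-state libraries, as for 17.0% of all genes. It fell by 2.74 ± 0.40 on the log2 scale (SE; edgeR adjusted p = 0.00438, called under all 16 alternatives). Il12rb1, the receptor chain that IL-12 and IL-23 share, rose by 1.55 ± 0.37 (adjusted p = 0.0215), and Il6st, the signalling chain gp130 of the IL-27 receptor and the highest of the list by mean CPM (175), was the other that fell. The Il12rb1 call was lost without WT steady-state library 2, either KO steady-state library or KO LPS library 1 (adjusted p from 0.0512 to 0.0935), and that of Il6st without any 1 of the steady-state or KO LPS libraries (0.0589 to 0.133).

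Among the Janus kinases and STATs of these receptors, Jak2, a kinase of the IL-12 receptor, had the highest mean level over the 8 libraries (1095 CPM).

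Of 12 transcription factors known to act on subunit genes, 2 rose and 2 fell with LPS averaged over both genotypes, shares near those of all genes (13.8% called higher and 14.8% lower). Nfkbiz, a nuclear IkB protein that is needed for a group of late LPS genes, rose by 2.17 ± 0.29 (edgeR adjusted p = 0.00321). Batf3, a factor of cross-presenting dendritic cells, fell by 1.44 ± 0.25 (0.00814). Cebpb was the other factor that rose, and Relb the other that fell. Cebpb, named after its values were seen, lost its call without either WT steady-state library or KO steady-state library 2 (adjusted p from 0.0557 to 0.0646). Between the genotypes with LPS, 10 of the 12 were lower in KO, 8 of the 12 had an unadjusted p under 0.05 in either direction (16.9% of all genes did), and 0 were called by edgeR, beside 0.772% of all genes. The median of the list was -0.94, beside -0.014 over all genes tested.

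Irf8, a factor known to act on the Il12b promoter and the most highly expressed of that list, had 1154 and 1435 CPM in WT and 937 and 858 CPM in KO at steady state. With LPS it had 2022 and 2292 CPM in WT and 568 and 266 CPM in KO. The WT LPS libraries were the highest of the 8 and the KO LPS libraries the lowest, an order whose share over all genes was not counted. Of all genes, 18.1% were lower in KO than in WT with LPS without overlap, Il12b among them. The KO minus WT difference with LPS was -2.37 ± 0.42 (SE; edgeR adjusted p = 0.0608), which did not pass the threshold.

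Of 8 genes that restrain subunit expression, 7 passed the filter on low counts and 4 of these rose in the averaged LPS comparison, beside 13.8% of all genes. Socs1, an inhibitor of JAK-STAT signalling, rose by 1.70 ± 0.21 (edgeR adjusted p = 0.00237). Zc3h12a, an RNase that degrades cytokine mRNAs including Il12b, rose by 1.89 ± 0.32 (0.00724), with 230.1 and 120.1 CPM in WT LPS and 109 and 245 CPM in KO LPS. The other two were Tnfaip3, whose call was lost without either KO steady-state library (0.0578 and 0.0586), and Atf3, named after its values were seen, whose call was lost with a replicate block (0.0540) and without any 1 of 6 libraries (all but WT LPS library 2 and KO LPS library 1; 0.0667 to 0.133).

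The other LPS-responsive cytokines gave 5 of 7 tested genes that rose in the averaged comparison, beside 13.8% of all genes. Il1a rose by 5.23 ± 0.33 (edgeR adjusted p = 0.000351) and Il1b by 4.69 ± 0.33 (0.000418), and both were called in each genotype. The other three were Il6, Tnf and Il18, of which Tnf and Il18 were named after their values were seen, and the Il18 call was lost without any 1 of the steady-state libraries (0.0626 to 0.0791). Il6 and Il15 were called lower in KO than in WT with LPS, 2 of 7 beside 0.490% of all genes. Il6 had 253 and 249.7 CPM in WT LPS and 28.8 and 29.4 CPM in KO LPS, a difference of -3.11 ± 0.40 (adjusted p = 0.0344). Il15, which sustains NK cells and memory T cells, had 58.5 and 72.4 CPM in WT LPS and 20.3 and 14.9 CPM in KO LPS, a difference of -1.89 ± 0.25 (adjusted p = 0.0366). Like Il12b, Il6 had WT LPS levels above all 6 other libraries, a pattern whose share over all genes was not counted. The Il6 call was lost without either KO steady-state library or either KO LPS library (adjusted p from 0.124 to 0.152), and the Il15 call without any 1 of the steady-state or KO LPS libraries (0.0976 to 0.152). With a replicate block the adjusted p was 0.0764 for Il6 and 0.0930 for Il15, and neither was called when only the groups compared were fitted.

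Of 10 genes of the TLR4 receptor and its adaptors, 2 rose and 1 fell in the averaged LPS comparison, near the shares of all genes (13.8% and 14.8%). Between the genotypes with LPS 0 were called by edgeR (0.772% of all genes), and 2 had an unadjusted p under 0.05. Cd14, the co-receptor that hands LPS to TLR4, rose by 3.24 ± 0.37 (edgeR adjusted p = 0.00188). It had 2455 and 1017 CPM in WT LPS and 1199 and 1552 CPM in KO LPS, so the genotypes overlapped. Ticam2, an adaptor of the TLR4 endosomal pathway, rose by 1.33 ± 0.18 (0.00351). Irak4, a kinase of the MyD88 pathway that was named after its values were seen, fell, and its call was lost without any 1 of the steady-state libraries or KO LPS library 2 (0.0675 to 0.0767).

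**Figure D5:**
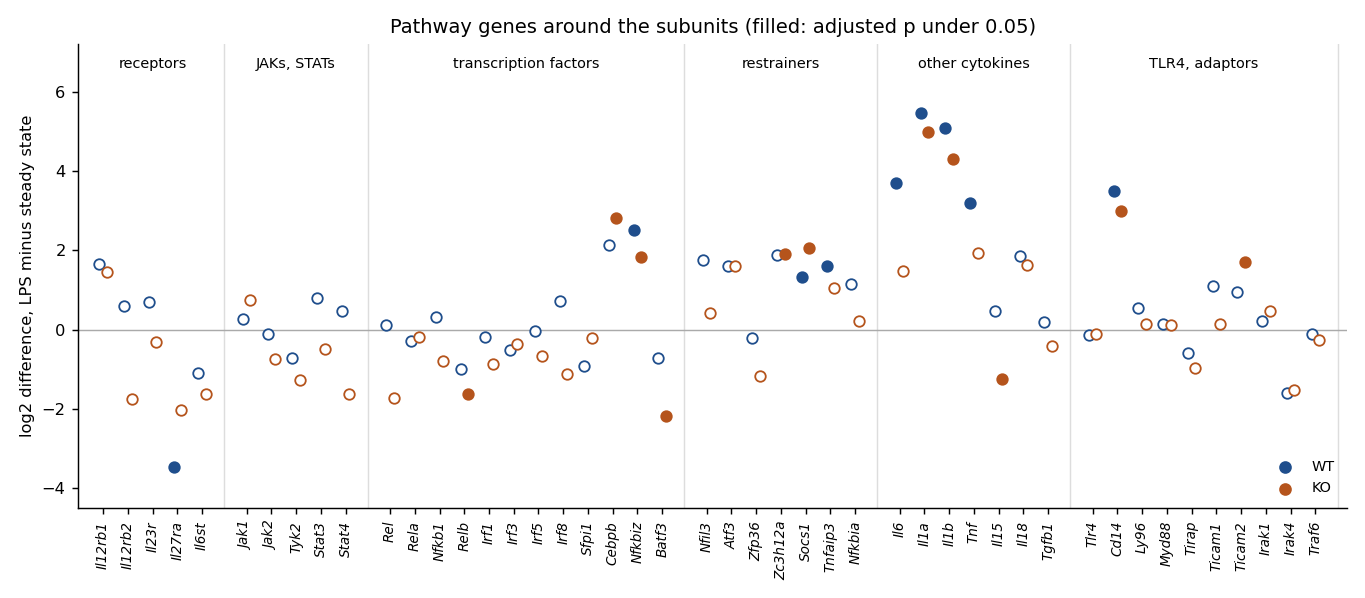
Log2 difference of LPS minus steady state for pathway genes that passed the filter, in WT (blue) and KO (orange), with filled points for an edgeR adjusted p under 0.05. Il1a, Il1b and Cd14 are filled in both genotypes, Il6 in WT and not in KO (the interaction, which compares the LPS responses of the genotypes, was not called), and Il27ra is the lowest point, at -3.46 in WT.

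For each tested subunit, the 3 genes with the most similar pattern were taken from 9125 candidates by Pearson's r over log2 CPM of the 8 libraries. The libraries fall into separate groups (steady state and LPS, or for Il12b the WT LPS libraries and the rest), so r mostly describes those splits, and no p is given. Il12a was closest to Socs3 (r = 0.999), Irg1 (0.996) and Il1a (0.995). Il12b was closest to Lrch1 (0.987), Rnf24 (0.982) and Tmppe (0.976), which share its single high group. Rnf24 had 54.9 and 51.7 CPM in WT LPS and 10.04 to 20.8 CPM in the other 6 libraries. Il27 was closest to Casp8 (0.976), B4galt1 (0.961) and Nlrp3 (0.961), and Zfp341 (0.983) and Niacr1 (0.983) were among the closest to Ebi3. By ranks the likeness was lower for some of these, with Spearman's rho of 0.762 for Il1a with Il12a and 0.833 for Lrch1 with Il12b.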

How the data were processed

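Read counts per gene in 8 libraries, 2 for each genotype and treatment, were taken from a table that the authors deposited, whole and not normalized. Per the labels' protocols, the kit was TruSeq RNA v2. The build was mm10, and edgeR 3.6.8, Subread 1.4.3, featureCounts and TopHat2 2.0.8 were used in roles that are not stated, per the submitters' processing notes. Groups come from the sample titles. The members and gene lists were chosen with earlier results of these data known. In R 4.3.3, edgeR 4.0.16 filtered genes with filterByExpr (minimum count 10, total 15) and ran the quasi-likelihood F test, two-sided, over all 8 libraries, with TMM factors and Benjamini-Hochberg adjustment over 12442 genes (threshold 0.05; 4 residual and 3.40 prior degrees of freedom). CPM uses TMM-scaled sizes of the kept genes. SE is the log2 difference over the square root of F. Partner ratios were compared by exact permutation of labels over all libraries compared, for IL-27 across treatments and genotypes. The script was tested on simulated data. DESeq2 1.42.0, other scalings and filters, a replicate block and leaving out each library were alternatives. No library pair agreed within sampling noise (chi-square per gene 18.4 to 185). Named genes were the 5 subunits, the 3 most correlated genes of each tested subunit with a group mean of at least 10 CPM, and per list up to 2 called genes with the smallest adjusted p in each comparison and the highest by mean CPM. Intervals and limits for counts cover counting error only, and PCR copies are not separated. Some genes that the naming rule or the lists include are not reported here.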

Additional observations from a re-analysis of the deposited data

How the results depend on the processing

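Each group holds 2 libraries and Il12a, Il23a and Il27 had as few as 0, 0 and 9 reads, so calls moved with the fit. Of 367 alternative values for 22 subunit results, 331 kept their direction and their side of the threshold, 16 newly passed it, 14 no longer passed it and 6 changed sign; the cause was not tested. KO against WT with LPS went from 0 members called to 1, Il12b, without the filter on low counts, with DESeq2 and with the crossed block, and to 0 to 1 when single libraries were left out. LPS in WT went from 2 members to 4 without the filter and with DESeq2, to 1 with only the groups compared, and to 1 to 4 when single libraries were left out. LPS in KO went from 1 to 2 with only the groups compared, and to 1 to 2 when single libraries were left out. The averaged LPS comparison went from 4 to 1 to 4 when single libraries were left out. The interaction went from 0 to 1 with DESeq2. When single libraries were left out, the sign changed for Il12b at steady state (-0.29 to 1.26, the first without WT_ST 1), Ebi3 at steady state (-0.46 to 0.0097, the second without KO_ST 1), Il12a and Il27 between genotypes with LPS (-0.61 to 0.37 and -0.85 to 0.38, the upper values without WT_LPS 1), Il12b with LPS in KO (-0.013 to 0.19, the first without KO_LPS 1) and the Ebi3 interaction (-1.36 to 0.19, the second without WT_LPS 1). All genes called numbered 0 between the genotypes at steady state (0 to 27 over the alternatives), 96 with LPS (0 to 1062), 807 for LPS in WT (70 to 3629), 1463 in KO (143 to 3345), 3555 averaged (1305 to 6275) and 0 in the interaction (0 to 113).

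Under the replicate block, the members called were 0, 0, 2, 1, 4 and 0 in the same 6 comparisons, as without it, and all genes called 0, 8, 465, 776, 2511 and 0. The correlation of the deviations of same-numbered libraries was above 0.1 in 3 of 6 pairs of groups (0.260 for WT steady state with WT LPS, 0.166 for WT with KO at steady state, 0.113 for KO steady state with KO LPS) and lower in the others (0.0496, -0.155 and, for WT with KO under LPS, -0.599), so the numbers were not taken to pair the libraries. A block with the KO LPS numbers crossed, chosen after seeing the data, called 0, 273, 1285, 2484, 4493 and 0 genes. Per kb levels rose with the shorter coding length, and the order of partners did not change under the 4 lengths tried.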
